A study of Mus musculus with 15 samples.

Results

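Transcripts of 8 transcription factors that endocrine cells of the pancreas share were measured in purified mouse alpha, beta and delta cells: *Neurod1*, *Nkx2-2*, *Pax6*, *Isl1*, *Insm1*, *Rfx6*, *Rfx3* and *Myt1*. They were chosen by name, as factors known across the islet cell types and not as markers of one of them, and all 8 were found, each on 1 row, among the 38283 genes of the expression table. Of these genes 14405, with all 8 factors among them, passed the filter of a mean above 1 FPKM (reads scaled to transcript length and to the mapped reads of the library) in at least 1 cell type. The 15 sequenced samples comprised 5 alpha and 4 beta cell samples of the Glu-Venus genotype and 6 delta cell samples of the Sst-CreXROSA26EYFP/EYFP genotype, all of the C57BL/6 strain and with an age not given in the sources used here. Venus is driven by the proglucagon promoter and marked alpha cells, whereas beta cells were the Venus-negative cells sorted from the same islets by scatter and background fluorescence. EYFP marked cells in which the *Sst* promoter had driven Cre, so a label made at any earlier time stays on, and because no alpha or beta cells came from this line, effects of mouse line and of delta cell identity cannot be told apart. Islets of several mice were pooled for each sample, and the labels do not say whether samples of a cell type were prepared on separate days.

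Glucagon-, insulin- and somatostatin-producing cells of the islet descend from a common endocrine progenitor that transiently switches on the basic helix-loop-helix factor NEUROG3. The factors described here act at or after that step. NEUROD1, a direct target of NEUROG3, and INSM1, a zinc finger repressor, belong to the onset of the endocrine programme. NKX2-2, PAX6 and ISL1 are homeodomain proteins (PAX6 with an additional paired domain) that remain in mature islet cells and bind regulatory regions of hormone genes. RFX6 and RFX3 are winged-helix proteins that bind the X-box, RFX3 being also a regulator of cilium genes, and MYT1 is a zinc finger protein of neuroendocrine cells.

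Each library carried the hormone of its label: *Gcg* averaged 273077 FPKM in alpha cells against 636 in beta and 515 in delta cells, *Ins2* averaged 295241 in beta cells against 5534 and 5768 in alpha and delta cells, and *Sst* averaged 163268 in delta cells against 1619 and 165 in alpha and beta cells. Markers of endothelial cells, leukocytes and neural cells each summed to at most 2.81 FPKM in every sample, and those of stromal cells to at most 3.79. Summed duct markers (5 genes) ran from 25.4 to 172 FPKM in alpha, 8.56 to 24.7 in beta and 20.4 to 101 in delta samples. Of the 4 that could be tested *Sox9* alone passed across cell types, at 0.112 to 2.33 FPKM in delta samples and at most 0.0131 in the others, while *Krt19* was at 0 in all delta samples. Summed acinar markers (6 genes) ran from 70.7 to 487 FPKM in delta, 7.05 to 65.6 in alpha and 0.0283 to 4.22 in beta samples. None of the 6 was listed at 0 throughout any cell type, and 1 of the 6 passed the test across cell types. The pancreatic polypeptide gene *Ppy*, the defining marker of gamma cells, averaged 30424 FPKM in alpha and 21473 in delta cells against 45.05 in beta cells. The summed level of 83 ribosomal protein genes was also uneven, being 65596 to 140964 in 6 samples (alpha 1 to 3, beta 2, delta 1 and 2) and 7912 to 38761 FPKM in the remaining 9 (the high and low set below). Depth could be read from the steps of the FPKM values in 6 samples, at 7.44 to 30.52 M mapped reads, and is unknown for 9, whose libraries gave no clear step.

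All 8 factors were transcribed in all 15 samples. The lowest value of the whole set was 3.27 FPKM (*Myt1* in beta 3) and the highest 252 FPKM (*Nkx2-2* in alpha 5). *Nkx2-2*, *Isl1* and *Pax6* were the most abundant, each averaging between 58.2 and 125 FPKM in every cell type, and the other 5 averaged between 9.27 and 47.3 FPKM. Summed over the 8 factors, alpha samples held 367 to 575 FPKM (mean 445 ± 80.0, SD, n = 5), beta samples 235 to 563 (335 ± 155, n = 4) and delta samples 296 to 468 (387 ± 72.3, n = 6), ranges that overlap. The share of that sum taken by single factors differed: *Neurod1* made up 13.7% ± 4.25 of it in beta cells, 5.78% ± 1.69 in alpha cells and 3.32% ± 1.17 in delta cells, and *Insm1* 5.36% ± 1.04, 2.27% ± 1.14 and 10.4% ± 2.88 (SD, n = 4, 5 and 6).

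**Figure D1:**
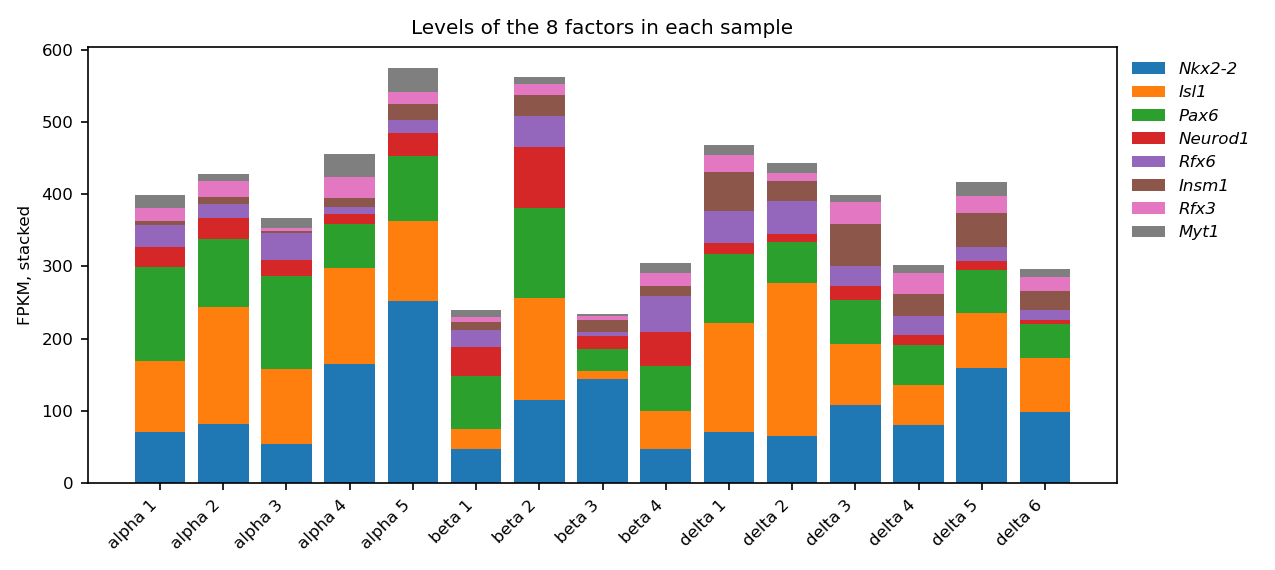
Stacked bars give the FPKM of the 8 factors in each of the 15 samples, on an axis that starts at 0. *Nkx2-2*, *Isl1* and *Pax6* fill most of nearly every bar, the *Neurod1* band is on average widest in beta samples and the *Insm1* band in delta samples.

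Levels were compared between cell types with limma on log2(FPKM + 1), and p-values were adjusted over all 14405 genes tested. In such sorted samples, fewer cells of a type with a transcript and less of it per cell cannot be told apart. A difference is given as the mean log2 value of the first cell type minus that of the second, a scale that understates changes of low genes. In the test across the 3 cell types 2 of the 8 factors, *Insm1* (adjusted p = 0.0113) and *Neurod1* (adjusted p = 0.0319), had an adjusted p under 0.05, where 16.0% of all genes tested did. *Insm1* kept this call whichever sample was left out, whereas that of *Neurod1* was lost without beta 1, 2 or 4 or delta 2, 4, 5 or 6 (adjusted p 0.0518 to 0.0794), and where hormone genes were left out of the scaling (adjusted p = 0.0731). That scaling, meant wherever hormone genes are left out below, follows *Gm12563*, a short RNA that held 31.8% to 59.5% of the summed FPKM. With only protein-coding genes other than hormone genes rescaled, a setting added after seeing the data, *Neurod1* was called across cell types (adjusted p = 0.00449). Between beta and alpha cells none of the 8 passed, against 7.66% of all genes, while 2, *Isl1* and *Myt1*, had an unadjusted p under 0.05, as 3303 of all genes had, and up to 2 were called under other scalings, the 2 under median-ratio scaling, where 2088 of all genes were called in place of 1104. Between delta and alpha cells 1 passed (*Insm1*), against 6.81%, and between delta and beta cells 1 passed (*Neurod1*), against 14.7%. The call for *Insm1* was a higher level and the call for *Neurod1* a lower level in delta cells. Over all genes tested the median difference was -0.13 for beta minus alpha, 0.13 for delta minus alpha and 0.30 for delta minus beta, beside -0.49, -0.24 and 0.41 over the 8 factors. Most calls over all genes were towards higher levels in delta cells, 768 against 213 lower for delta against alpha and 1683 against 431 lower for delta against beta.

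**Figure D2:**
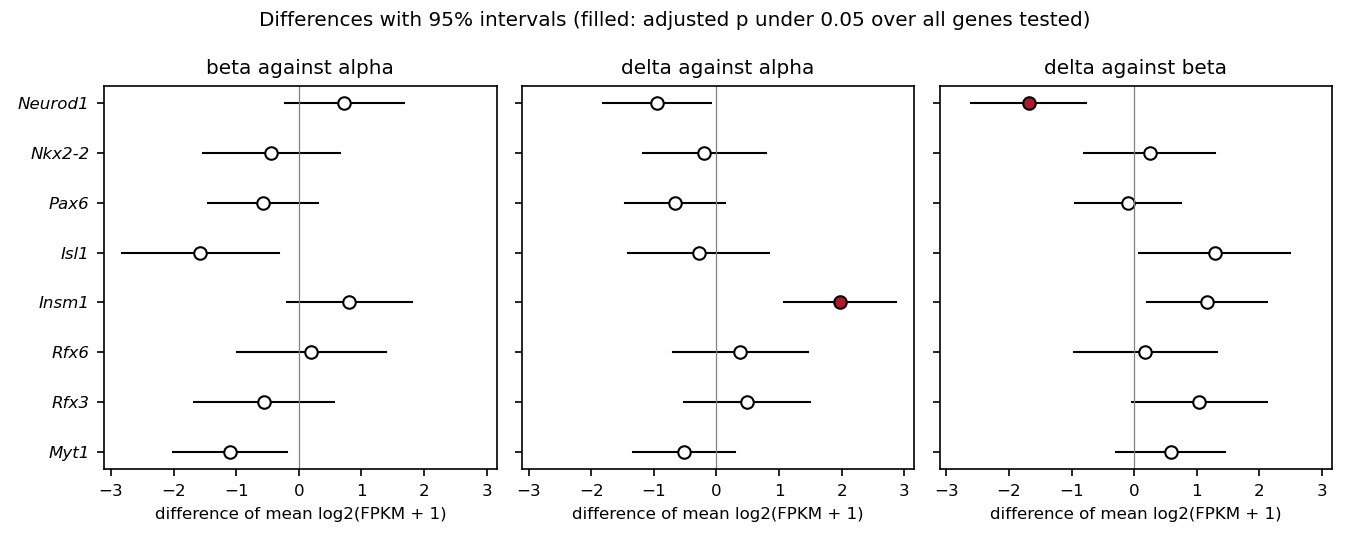
Points give the difference in mean log2(FPKM + 1) for each factor in the 3 comparisons and bars its 95% interval. Filled points, *Insm1* for delta against alpha at 1.97 and *Neurod1* for delta against beta at -1.68, have an adjusted p under 0.05 over all genes tested, and most other intervals include 0.

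*Neurod1* (ENSMUSG00000034701, minus strand, chr2:79452521-79456751 on GRCm38) encodes a helix-loop-helix activator that binds E-boxes, the insulin gene's among them. Alpha samples 1 to 5 had 28.5, 29.3, 23.2, 13.4 and 32.2 FPKM. Beta samples 1 to 4 had 40.2, 84.6, 17.3 and 46.9 FPKM. Delta samples ran from 5.87 to 18.9 FPKM with a median of 13.3. Beta was the highest and delta the lowest group, although the lowest beta sample (beta 3) lay just under the highest delta sample (delta 3). None of the 8 factors separated delta from beta samples without overlap, as 14.9% of all genes tested did. Means were 25.3 ± 7.43 FPKM in alpha, 47.3 ± 27.9 in beta and 12.8 ± 4.48 in delta cells (SD, n = 5, 4 and 6). Delta cells were lower than beta cells by a log2 difference of -1.68 (SE 0.43, 95% interval -2.60 to -0.76, adjusted p = 0.0151), which is 3.21-fold on that scale. The call was lost where hormone genes were left out and the rest rescaled (difference -1.77, adjusted p = 0.0896), a scaling that follows *Gm12563*. The differences of delta from alpha cells, -0.95 (-1.81 to -0.09, adjusted p = 0.228), and of beta from alpha cells, 0.73 (-0.22 to 1.68, adjusted p = 0.353), were not called. With median-ratio scaling of the libraries both passed, at -1.11 (adjusted p = 0.00698) and 0.98 (adjusted p = 0.0202), but with hormone genes left out the delta minus alpha difference turned to 0.16 (adjusted p = 0.840). Among the 6 libraries with high ribosomal protein transcripts the delta minus beta difference was -2.68, and among the other 9 it was -1.36. With the ribosomal protein set as a covariate it was -1.72 (adjusted p = 0.00661). With transcript length and depth, the values corresponded to about 249 to 2071 reads in the 6 samples of known depth, none of them a beta sample, and amplified reads are not independent molecules.

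The gene has 2 exons over 2729 exonic bases and 1 annotated transcript. *Cerkl*, a gene next to it on the same strand, shares 201 exonic bases with it, and reads there could be assigned to either. *Cerkl* averaged 12.9 FPKM in alpha, 24.6 in beta and 10.7 in delta cells, the same order as *Neurod1*, and was not called across cell types (adjusted p = 0.291). *AL928696.1*, a non-coding gene on the opposite strand, shares 154 exonic bases and averaged 0.761 to 1.25 FPKM. The library preparation is not stated to keep strand, so reads of the 2 strands there cannot be told apart.

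The RefSeq promoter table (GRCm38.p6) held windows for 7 of the 8 factors, the exception being *Insm1*. Stretches from 2 genes are shown because they hold, upstream of a factor that was called and of one that was not, the letters that known regulators of such genes bind. That of *Neurod1* (chr2:79456752-79456886, minus strand) is written 5′ to 3′ and ends where the annotated transcript starts, and its capitals mark the 3 GC boxes, GGGCGG, bound by SP and KLF proteins. That of *Nkx2-2* (chr2:147186403-147186652, minus strand) ends at the RefSeq start, its last bases lying also in an exon of non-coding transcripts of the gene, and its capitals mark the E-box letters CATCTG that NEUROD1 binds and CACTT, the reverse of the NKX2 core AAGTG.
Neurod1: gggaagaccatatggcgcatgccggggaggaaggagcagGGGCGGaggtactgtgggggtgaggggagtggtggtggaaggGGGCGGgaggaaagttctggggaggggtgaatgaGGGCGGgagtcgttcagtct
Nkx2-2: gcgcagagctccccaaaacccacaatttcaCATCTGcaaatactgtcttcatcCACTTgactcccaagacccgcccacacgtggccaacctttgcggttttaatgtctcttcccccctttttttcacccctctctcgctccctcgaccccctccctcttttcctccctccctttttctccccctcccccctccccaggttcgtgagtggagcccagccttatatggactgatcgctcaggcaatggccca
Searched on both strands in the full windows of 300 bases, GGGCGG occurred 4 times at *Neurod1*, where 35.7% of 32851 promoters held it at least once. It also occurred 3 times at *Rfx3* and 1 time at *Nkx2-2*, left in lower case above, 2 factors that were not called. CATCTG was found at *Nkx2-2* and not in the windows of the other matched factors, with 17.2% of promoters holding it, and AAGTG was held by 46.4%. GTTGCC, a motif that RFX proteins bind, was present once each in windows of *Pax6*, *Rfx6* and *Rfx3*, and in 12.5% of all promoters. The window of *Neurod1* held 26 CpG and that of *Nkx2-2* 17, beside a median of 7. These matches describe letters and were not tested against the expression values.

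*Insm1* (ENSMUSG00000068154, plus strand, chr2:146221921-146225020) is a gene of 1 exon whose product represses transcription with RCOR and lysine demethylase partners and is used as a marker of neuroendocrine cells. Alpha samples 1 to 5 had 5.30, 10.8, 3.53, 12.3 and 21.9 FPKM. Beta samples 1 to 4 had 11.5, 29.4, 16.1 and 13.8 FPKM. Delta samples ran from 26.6 to 58.9 FPKM with a median of 38.7. Every delta sample thus lay above every alpha sample, and beta 2 alone among the beta samples reached into the delta range. Of the 8 factors *Insm1* alone separated delta from alpha samples without overlap, as 6.64% of all genes did. None separated beta from alpha samples, as 8.12% did. Means were 10.8 ± 7.22 in alpha, 17.7 ± 8.04 in beta and 40.6 ± 14.4 FPKM in delta cells (SD, n = 5, 4 and 6). Delta exceeded alpha cells by a log2 difference of 1.97 (SE 0.42, 95% interval 1.07 to 2.88, adjusted p = 0.00748), or 3.93-fold on that scale, a size above that of 96.2% of all genes tested. The delta minus beta difference was 1.16 (0.20 to 2.13, adjusted p = 0.0993) and the beta minus alpha difference 0.81 (-0.19 to 1.81, adjusted p = 0.328), neither of them called. Without beta 2 the delta minus beta difference was 1.43 and passed (adjusted p = 0.0466).

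The delta minus alpha difference of *Insm1* was 2.49 among the libraries with high ribosomal protein transcripts and 1.19 among the others, and 1.91 (adjusted p = 0.00903) with the set as a covariate. The beta minus alpha difference was 2.13 and -0.25 in these sets. Summed acinar markers and *Sox9*, given above, were also highest in delta samples, and their part in the result was not tested. No annotated gene overlapped the exon of *Insm1*. In the 6 samples of known depth its values corresponded to about 234 to 5210 reads.

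**Figure D3:**
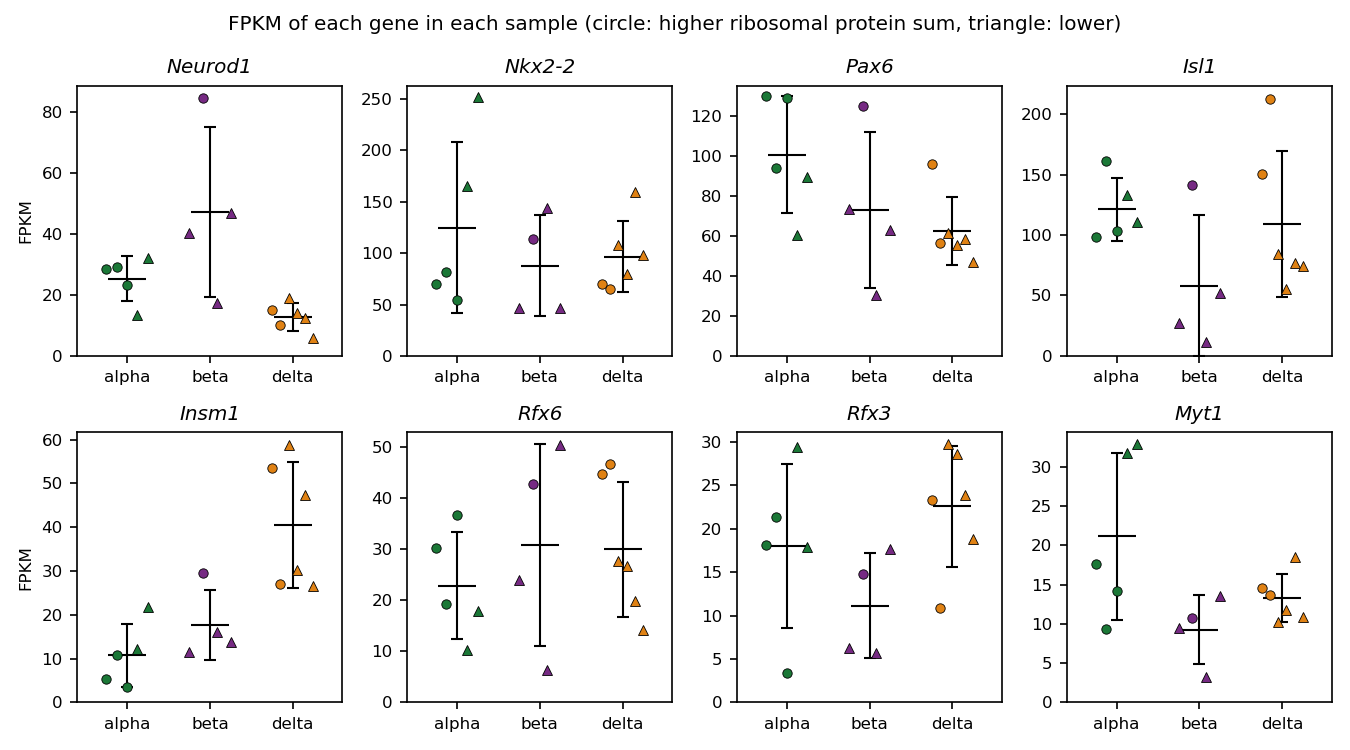
Each panel gives 1 factor in FPKM on an axis from 0, with 1 point for each sample (circles, higher ribosomal protein sum; triangles, lower), a line at the mean and bars of 1 SD for 5 alpha, 4 beta and 6 delta samples. *Insm1* in delta samples (26.6 to 58.9) lies above all alpha samples (3.53 to 21.9), and *Neurod1* in delta samples (5.87 to 18.9) lies below all beta samples but beta 3 (17.3).

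The 2 called factors differed in opposite directions in delta cells, but against different cell types: *Insm1* was higher than in alpha cells and *Neurod1* lower than in beta cells. The ratio of *Insm1* to *Neurod1* within a sample, looked at after the values were seen and hence not tested, was 0.152 to 0.919 in alpha samples, 0.287 to 0.930 in beta samples and 2.13 to 4.53 in delta samples. *Insm1* exceeded *Neurod1* in 6 of 6 delta samples and in 0 of the 5 alpha and 0 of the 4 beta samples. Being taken within a sample, the ratio does not depend on the scaling of the libraries.

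**Figure D4:**
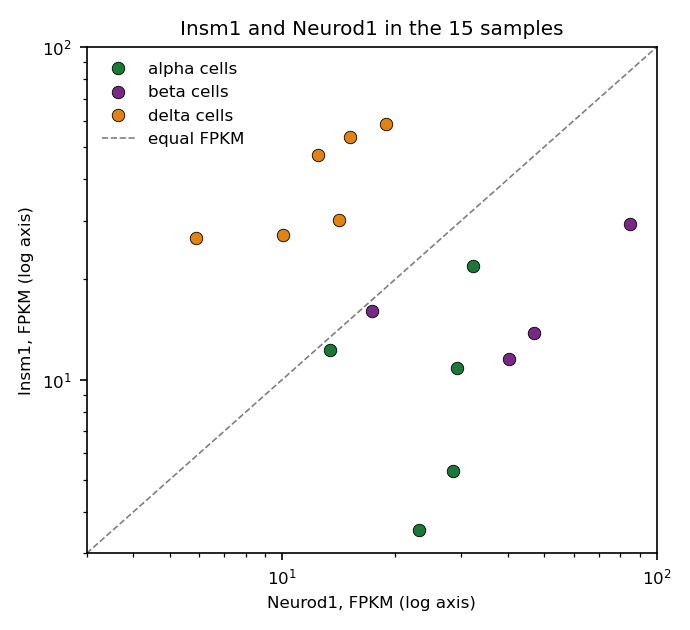
Each point is 1 of the 15 samples, with *Neurod1* on the horizontal and *Insm1* on the vertical axis, both in FPKM on log axes, and a dashed line of equal FPKM. The 6 delta samples lie above the line, at ratios of 2.13 to 4.53, and the 9 alpha and beta samples below it, at 0.152 to 0.930.

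By the rule for likeness, the genes that followed *Neurod1* most closely over the 15 samples were *Nipal1* (r = 0.925), *Mctp1* (r = 0.924) and *Gas2* (r = 0.916), all lowest on average in delta cells. *Nipal1* averaged 11.3 FPKM in alpha, 31.8 in beta and 0.869 in delta cells. For *Insm1* they were *Pprc1* (r = 0.911), *Tex2* (r = 0.908) and *Srrm4* (r = 0.908), with *Srrm4*, a splicing regulator of neural microexons, at 0.931, 1.90 and 4.12 FPKM. These coefficients describe samples that share cell type, mouse line and library quality, and were not tested.

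*Isl1* (ENSMUSG00000042258, minus strand, chr13:116298281-116309689), a LIM homeodomain factor that works with the adaptor LDB1, was even among alpha samples, with a coefficient of variation of 21.4% beside a median of 65.1% over all genes, and scattered among beta samples, at 99.7% beside 76.0%. Alpha samples 1 to 5 had 98.6, 161, 103, 133 and 111 FPKM. Beta samples 1 to 4 had 27.4, 141, 11.4 and 52.4 FPKM. Delta samples ran from 55.6 to 213 FPKM with a median of 80.5. The other 3 beta samples lay below every alpha and delta sample, and beta 2 lay inside both ranges. Means were 121 ± 25.9, 58.2 ± 58.0 and 109 ± 60.3 FPKM in alpha, beta and delta cells (SD, n = 5, 4 and 6). Beta minus alpha was -1.57 (SE 0.59, -2.82 to -0.32, adjusted p = 0.120) and delta minus beta 1.29 (0.08 to 2.49, adjusted p = 0.147), neither called. Without beta 2, which is the only beta library of the high ribosomal protein set, they were -2.18 (adjusted p = 0.0132) and 1.89 (adjusted p = 0.0158), both past the threshold, and quantile normalization of all 15 samples also gave both calls (adjusted p = 0.0126 and 0.0140). With hormone genes left out, by contrast, beta minus alpha was -0.37 (adjusted p = 0.744), and with median-ratio scaling delta minus beta was 0.88 (adjusted p = 0.130). Median-ratio scaling did call beta minus alpha, as did the rescaling of protein-coding genes, where *Isl1* was also called across cell types (adjusted p = 0.00991). Within the low set beta minus alpha was -2.20 and within the high set, with beta 2 alone, 0.26. *Isl1* and *Pax6* also differed in order: *Isl1* exceeded *Pax6* in 6 of 6 delta samples, in 3 alpha samples and in 1 beta sample, with no test made.

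*Pax6* (ENSMUSG00000027168, plus strand, chr2:105668900-105697364), needed for alpha cell formation and for hormone gene transcription, had 60.5 to 130 FPKM in alpha samples (mean 101 ± 29.2), 30.5 to 125 in beta samples (72.9 ± 39.0) and 46.8 to 95.8 in delta samples (62.3 ± 17.1). The 3 ranges overlapped and no comparison was called (adjusted p = 0.402 across cell types). The 95% intervals of the differences, for this scaling of the libraries, were -1.45 to 0.31 for beta minus alpha, -1.46 to 0.13 for delta minus alpha and -0.95 to 0.76 for delta minus beta. With hormone genes left out and the rest rescaled the first 2 differences changed sign, to 0.66 and 0.50, outside those intervals. *Pax6os1*, a non-coding gene on the opposite strand that overlaps its span but shares no exonic base, behaved otherwise. It had 0 to 2.65 FPKM in alpha samples against means of 9.22 in beta and 7.11 in delta cells, with differences from alpha cells of 2.16 (adjusted p = 0.0307) and 2.10 (adjusted p = 0.0182).

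*Nkx2-2* (ENSMUSG00000027434, minus strand, chr2:147177546-147194243), whose product represses and activates genes of islet cell identity, was in this fit the most evenly spread of the abundant factors between cell types. Alpha samples ran from 54.0 to 252 FPKM (mean 125 ± 83.1), beta samples from 46.6 to 144 (87.9 ± 49.1) and delta samples from 64.8 to 159 (96.7 ± 34.7). The highest alpha values belonged to alpha 4 and 5, the 2 alpha libraries with low ribosomal protein transcripts, at 165 and 252 FPKM, while the other 3 lay between 54.0 and 81.9. Cell type accounted for 6.08% of the variance of the log2 values, and the adjusted p across cell types was 0.804. Differences were -0.44 (-1.53 to 0.65) for beta minus alpha, -0.19 (-1.18 to 0.79) for delta minus alpha and 0.25 (-0.80 to 1.30) for delta minus beta. With hormone genes left out the first 2 changed sign, to 0.78 and 0.97, outside those intervals. Of its antisense neighbours, *Nkx2-2as* shares 278 exonic bases with it and averaged 1.06 to 1.48 FPKM, and *6430503K07Rik*, with no shared exonic base, averaged 24.7 in alpha, 8.85 in beta and 36.3 FPKM in delta cells (delta minus beta 1.89, adjusted p = 0.0260). Across cell types *6430503K07Rik* was not called (adjusted p = 0.0588).

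*Rfx6* (ENSMUSG00000019900, plus strand, chr10:51677756-51730432), needed for islet cell formation downstream of NEUROG3, had 10.3 to 36.7 FPKM in alpha, 6.26 to 50.4 in beta and 14.1 to 46.8 in delta samples. Group means were 22.9 ± 10.5, 30.9 ± 19.8 and 30.0 ± 13.2 FPKM, and the beta range contained both other ranges. In this fit it had the smallest range of means of the 8 factors, 0.38 on the log2 scale, and an adjusted p of 0.841 across cell types. The intervals, -0.99 to 1.39 for beta minus alpha, -0.69 to 1.46 for delta minus alpha and -0.96 to 1.32 for delta minus beta, each include differences above 1 on the log2 scale. With hormone genes left out, beta minus alpha was 1.38 and delta minus alpha 1.51, the latter above its interval. The adjusted p across cell types was then 0.0764.

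*Rfx3* (ENSMUSG00000040929, minus strand, chr19:27761721-28011166) had 3.33 to 29.4 FPKM in alpha (mean 18.03 ± 9.44), 5.68 to 17.7 in beta (11.1 ± 6.05) and 10.9 to 29.8 in delta samples (22.6 ± 6.92). Its largest difference in this fit was delta minus beta, 1.04 (-0.04 to 2.12, adjusted p = 0.193), and the groups overlapped. With hormone genes left out, delta minus alpha was 1.54 and beta minus alpha 0.51. The antisense gene *Gm20407* and the pseudogene *Gm8412* inside its span share no exonic base with it. *Rfx6* exceeded *Rfx3* in 4 of 4 beta samples, 3 of 5 alpha samples and 2 of 6 delta samples, with no test made.

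*Myt1* (ENSMUSG00000010505, plus strand, chr2:181763332-181827797) had 9.34 to 32.9 FPKM in alpha (mean 21.2 ± 10.6), 3.27 to 13.6 in beta (9.27 ± 4.35) and 10.2 to 18.5 in delta samples (13.3 ± 3.06). Beta minus alpha was -1.10 (SE 0.43, -2.01 to -0.19, adjusted p = 0.133) and was not called, and with hormone genes left out it was -0.017 (adjusted p = 1). As for *Nkx2-2*, alpha 4 and 5 were the highest alpha samples, at 31.8 and 32.9 FPKM, and the beta minus alpha difference was -0.28 within the high ribosomal protein set and -1.94 within the low set.

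In order of mean FPKM, *Nkx2-2*, *Isl1* and *Pax6* took the first 3 places in alpha and delta cells, and in beta cells *Neurod1* came close behind them. *Neurod1* ranked 3 to 4 of the 8 in every beta sample, 4 to 6 in alpha samples and 7 to 8 in delta samples. *Insm1* ranked 4 to 5 in delta samples, 4 to 7 in beta samples and 6 to 8 in alpha samples. *Rfx3* and *Myt1* held ranks 6 to 8 and 7 to 8 in beta samples. Neighbours in the order of means overlapped in FPKM within each cell type, except *Pax6* and *Neurod1* in alpha cells, where the lowest *Pax6* value (60.5 FPKM) lay above the highest *Neurod1* value (32.2 FPKM).

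Cell type accounted for a median of 32.9% of the variance of the 8 factors and 22.9% of that of all genes tested. The largest difference between any 2 cell type means had a median of 1.07 over the 8 factors and 0.91 over all genes. Among 10 factors known to be restricted to particular islet cell types, 9 could be tested, 9 of them passed across cell types and the median was 4.04. They included *Hhex*, 72.8 FPKM in delta cells against 0.721 and 0.113 in alpha and beta cells, and *Pou3f4*, 5.26 FPKM in alpha cells against 0.0228 and 0.0186 in beta and delta cells. Of 8 HNF and FOXA factors, which gut and liver cells also use, 6 could be tested and 2 passed (33.3%, beside 16.0% of all genes): *Hnf4a*, at 12.7 FPKM in delta cells against 2.66 and 2.46 in alpha and beta cells, and *Foxa3*, at 11.5 against 5.48 and 2.00. Their median was 1.11.

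**Figure D5:**
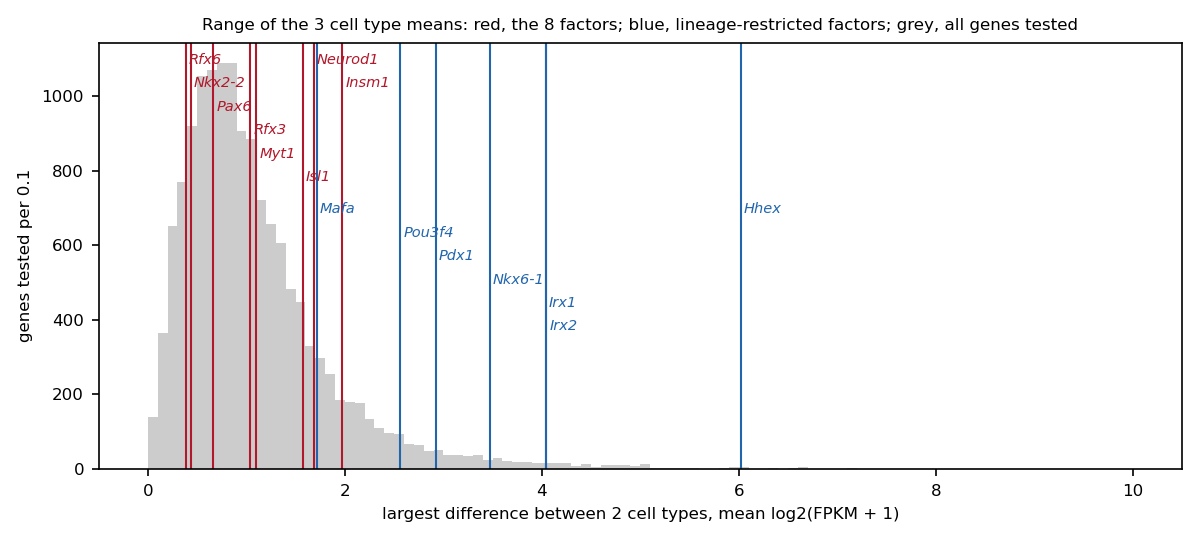
Grey bars count the 14405 genes tested by the largest difference between 2 cell type means of log2(FPKM + 1), with a red line for each of the 8 shared factors and a blue line for each of 7 of the 9 lineage-restricted factors tested. The shared factors lie between 0.38 (*Rfx6*) and 1.97 (*Insm1*), and the lineage-restricted ones drawn lie between 1.72 (*Mafa*) and 6.02 (*Hhex*).

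Most relatives of the 8 factors stayed below the filter on low values. Of 20 genes of the same families 8 could be tested, 3 of which passed across cell types (37.5%, beside 16.0% of all genes), each highest in delta cells, the direction of most calls over all genes. *Neurog3*, the progenitor factor upstream of *Neurod1* and *Insm1* in development, had 18.4 to 52.5 FPKM in delta samples (mean 31.9 ± 13.1, n = 6), 0.0811 to 0.869 in alpha samples and 0 to 0.0985 in beta samples. It thus exceeded *Neurod1* on average in delta cells, with differences of 4.44 from alpha cells (SE 0.29, adjusted p = 8.35e-08) and 4.91 from beta cells (SE 0.31, adjusted p = 7.65e-08). Every delta sample lay above every alpha and beta sample, as 6.64% and 14.9% of all genes separated delta from alpha and from beta samples in either direction. *Insm2*, the paralogue of *Insm1*, was listed at 0 in all alpha samples, averaged 0.00148 FPKM in beta cells and had 0.730 to 2.03 FPKM in delta samples (adjusted p = 0.00626 across cell types). *Rfx2* averaged 1.67, 0.555 and 2.73 FPKM in alpha, beta and delta cells (adjusted p = 0.0423). The other 5 tested, *Rfx1*, *Rfx5*, *Rfx7*, *Myt1l* and *St18*, were not called. *Neurod2*, *Nkx2-3*, *Nkx2-4*, *Nkx2-5*, *Pax4* and *Isl2* were listed at 0 in all 15 samples.

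Of 22 dimer partners and cofactors of the 8 factors 20 could be tested and 4 passed across cell types (20%, near the 16.0% of all genes), each with its highest mean in delta cells, as for most calls over all genes. *Ldb1*, the LIM-domain adaptor that binds ISL1, averaged 10.98 ± 4.34 FPKM in alpha, 6.10 ± 2.95 in beta and 20.3 ± 3.90 in delta cells (SD, n = 5, 4 and 6), with a delta minus beta difference of 1.66 (adjusted p = 0.00410). Single-stranded DNA binding proteins of the same complex, *Ssbp3* and *Ssbp4*, averaged 48.0 and 12.7 FPKM in delta cells, 16.3 and 2.69 in alpha cells, and ranged from 18.6 to 30.95 and from 0.698 to 5.14 FPKM in beta samples. Their delta minus alpha differences were 1.54 (adjusted p = 0.00529) and 1.91 (adjusted p = 0.00252). *Tle4*, a Groucho corepressor of the kind NKX2-2 recruits, averaged 3.24 FPKM in delta, 1.31 in alpha and 0.360 in beta cells, with a delta minus beta difference of 1.60 (adjusted p = 0.00120). The E-protein partners of NEUROD1 did not pass. *Tcf4* averaged 8.02, 7.40 and 19.8 FPKM in alpha, beta and delta cells (adjusted p = 0.0901), *Tcf3* 3.17, 2.44 and 3.97 (adjusted p = 0.541) and *Tcf12* 4.98, 5.27 and 4.99 (adjusted p = 0.996).

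Of 18 secretory genes that islet endocrine cells share, all tested, 4 passed across cell types (22.2%, beside 16.0% of all genes). *Slc30a8*, the zinc transporter of secretory granules, averaged 259 FPKM in alpha and 277 in beta cells and 2.35 in delta cells (delta minus alpha -6.14, adjusted p = 4.28e-07). *Pcsk1*, a prohormone convertase, averaged 138 FPKM in beta, 16.3 in delta and 1.05 in alpha cells (beta minus alpha 5.92, adjusted p = 3.46e-07). *Scg2*, a granin, averaged 1507, 721 and 162 FPKM in beta, delta and alpha cells, and *Kcnj11*, a subunit of the ATP-sensitive potassium channel, 10.2, 28.2 and 14.5 FPKM. The other 14 were not called across cell types. *Chgb*, another granin, was called between delta and alpha cells (3.58, adjusted p = 0.0450), at 17.2 to 589 FPKM in alpha and 189 to 3047 in delta samples. Of 19 ciliary transport genes, the kind of gene RFX3 is known to regulate, 18 could be tested and 1 (5.56%), *Ift88*, passed, at 39.3 FPKM in beta cells against 6.503 in alpha and 5.55 in delta cells (beta minus alpha 2.27, adjusted p = 0.0179).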

How the data were processed

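RNA of sorted cells was amplified, sheared and sequenced as short single reads by the authors. They aligned the reads to GRCm38 with TopHat (2.0.8 in the submitters' processing notes, 2.0.11 in the methods) and computed the deposited FPKM values per gene and sample with Cufflinks 2.2.1. The authors' own test, edgeR on raw read counts, was not repeated, because counts were not used here. Amplification and FPKM scaling can shift a gene's level between libraries when a few transcripts take a large share: 1 row, *Gm12563*, a short RNA, held 31.8% to 59.5% of the summed FPKM.

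Samples were grouped by their labels. Genes with a mean above 1 FPKM in at least 1 cell type (14405) were tested in 1 fit of all 15 samples without covariates with limma 3.58.1 (lmFit, eBayes with trend; R 4.3.3) on log2(FPKM + 1), pseudocount 1, with Benjamini-Hochberg adjustment over all genes tested and a call at an adjusted p under 0.05. P-values measure the spread between these samples. On simulated data the fit recovered 57% of genes changed by a log2 value of 2 and 5% of those changed by 1 for delta against alpha cells, and 50% and 3% for delta against beta cells (100 genes each, 14405 genes). Noise was normal on the log2 scale and only these genes were changed, in delta cells. Calls there numbered 62 and 55, against 981 and 2114 in the data. The adjustment was thus stricter, and these shares do not give the power for the 8 factors. Loci and overlaps came from GENCODE on GRCm38, promoters from RefSeq (GRCm38.p6). Tables and plots were made with Python 3.11.15, numpy 2.4.6, pandas 2.3.3 and matplotlib 3.10.9. The named genes were all 8 factors, up to 4 genes of each other list with the smallest p among those called across cell types, the 3 genes most like each called factor, and genes over a factor's span. A few uncalled relatives, partners and markers were named after their values were seen. The 8 factors and the lists were chosen with earlier results of these data known. Alternatives were other scalings, pseudocounts, filters and thresholds, fits of 2 cell types, a replicate block, the ribosomal protein set as a covariate and leaving out each sample. Some genes of the lists enter the counts but are not reported here by name.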

Additional observations from a re-analysis of the deposited data

Results flagged for a closer look

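Of the 24 sets of samples formed by 8 factors and 3 cell types, 2 held a sample far from the others of its cell type by Dixon's criterion, where chance gives about 1.2. Gaps and ranges were taken on log2(FPKM + 1), while the levels below are in FPKM. *Pax6* in delta 1 was 95.8 FPKM, the next highest delta sample being delta 3 at 61.2, a gap of 0.626 of the whole range against a critical value of 0.625. *Rfx3* in alpha 3 was 3.33 FPKM, the next lowest alpha sample being alpha 5 at 17.9, a gap of 0.756 of the range against a critical value of 0.710.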

How the results depend on the processing

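The higher *Insm1* level in delta than in alpha cells kept its direction under all 28 alternatives, with differences of 1.69 to 3.00. It was called wherever a test was made (adjusted p 0.00260 to 0.0277), the ratio of mean FPKM having no test. The lower *Neurod1* level in delta than in beta cells kept its direction under all 28 and lost its call in 3. It kept the call in 15 of 15 fits that left out 1 sample (-2.08 to -1.34). A call at an adjusted p under 0.01 left 0 factors across cell types, where 1210 of the 14405 genes tested passed, and 0 for delta against beta. Median-ratio scaling, which brings the median of all genes to about 0, gave 2 calls for beta against alpha and 2 for delta against alpha, with 2088 and 1027 of all genes called in place of 1104 and 981. Quantile normalization gave 1, 2 and 2 calls for beta against alpha, delta against alpha and delta against beta (all genes: 1970, 1088 and 2745, the last in place of 2114) and 3 across cell types, *Isl1* added. Leaving out hormone genes and rescaling to a common sum, which then follows *Gm12563*, kept the call of *Insm1* across cell types (adjusted p = 0.0329). It ended both calls of *Neurod1*, across cell types and for delta against beta. Rescaling protein-coding genes without hormone genes, added after seeing the data, gave 1 for beta against alpha, 2 for delta against beta (all genes: 1776 and 3321) and 3 across cell types, *Isl1* added. Fits of only the 2 cell types gave 2 for delta against beta. Leaving out 1 sample at a time gave 1 to 2 calls across cell types, 0 to 1 for beta against alpha and 1 to 3 for delta against beta. The call across cell types for *Neurod1* was lost without beta 1, beta 2, beta 4, delta 2, delta 4, delta 5 or delta 6. Without beta 2 *Isl1* was called instead across cell types. The cause of these changes was not tested.

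With the replicate block *Insm1* kept its call across cell types (adjusted p = 0.0305) and *Neurod1* lost it (adjusted p = 0.103). For delta against beta *Neurod1* was -1.53 and was not called (adjusted p = 0.0543). Samples with the same number had a mean correlation of deviations of 0.0761 (-0.152 to 0.281), and those with different numbers -0.016. These means include pairs with delta samples, which came from another mouse line. They cannot decide whether same-numbered alpha and beta samples share mice, which remains unknown. Neither of the 2 called differences changed sign, but some uncalled ones did, *Neurod1* for delta minus alpha among them, which other scalings called. With the block they were -0.028 for *Nkx2-2* and 0.0094 for *Pax6*, delta minus beta. Median-ratio scaling gave -0.17 for *Nkx2-2* and -0.21 for *Rfx6*, delta minus beta, quantile normalization 0.0079 for *Nkx2-2*, delta minus alpha, and the ratio of mean FPKM -0.040 for *Rfx6*, delta minus beta. With hormone genes left out, beta minus alpha was 0.78 for *Nkx2-2*, 0.66 for *Pax6* and 0.51 for *Rfx3*, and delta minus alpha 0.16 for *Neurod1*, 0.97 for *Nkx2-2*, 0.50 for *Pax6*, 0.88 for *Isl1* and 0.54 for *Myt1*. With protein-coding genes rescaled, delta minus alpha was 0.13 for *Nkx2-2* and 0.038 for *Isl1*, and delta minus beta 0.0064 for *Pax6*. Leaving out samples turned *Rfx6* for beta minus alpha (-0.14 to 0.80) and delta minus beta (-0.42 to 0.52), *Nkx2-2* for delta minus alpha (-0.43 to 0.12) and *Pax6* for delta minus beta (-0.45 to 0.22). Depth is unknown for 9 samples, and the small share of simulated log2 changes of 1 recovered limits what an uncalled factor shows.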
